A study of Mus musculus with 27 samples.

Results

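Hearts of mice under pressure overload that received the bromodomain inhibitor JQ1 were compared between day 28 and day 3, to ask which genes still moved while treatment went on. All 6 arrays that the labels give as TAC with JQ1 at those days were used, 3 per day, of 27 arrays in the series, and 19937 genes were compared, each through its probe set of highest average level across those 27. The mice were C57Bl/6J littermate males of 10 to 12 weeks, with no transgene or targeted allele named. Transverse aortic constriction (TAC), a suture that narrows the aortic arch, or sham surgery was followed by injections of JQ1 or of DMSO vehicle, which began 1.5 days after surgery. The 3 arms were sham plus vehicle, TAC plus vehicle and TAC plus JQ1, each with 3 arrays at days 3, 11 and 28. No sham arm with JQ1 is among the labels, so a change with time under JQ1 holds both the overload and the drug. RNA came from a 10 to 20 mg piece of heart, a mixture of cells, in which fewer cells of a type and less RNA per cell cannot be told apart. Nothing in the labels says that the 3 arrays of a group came from 3 animals, so p-values measure the spread between arrays of a group, which may be technical. This spread was pooled over all 27 arrays and not taken from the 6 treated arrays alone.

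JQ1 occupies the acetyl-lysine pocket of BET bromodomain proteins and displaces them from acetylated chromatin, which lowers release of paused RNA polymerase II at many inducible genes. A ventricle that pumps against a narrowed aorta thickens, its myocytes switch on genes of the fetal heart and of mechanical stress, and its fibroblasts and immune cells lay down and remodel matrix. Much of this programme begins within days of the constriction, so the treated heart at day 3 is in the early response and at day 28 in the chronic one.

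The drug's own mark was present at both ends. Hexim1, which encodes an inhibitor of the elongation kinase P-TEFb and is known to rise under BET inhibition, read 9.65, 9.32 and 8.96 (log2 units throughout) on the JQ1 day 3 arrays and 9.39, 9.54 and 9.58 at day 28. On the sham and vehicle TAC arrays of the same days it lay between 7.37 and 7.74, so the 6 treated arrays stood above all 12 others. Between the days it did not pass the test (0.19 ± 0.12, SE; limma adjusted p = 0.486). Brd2, which encodes one of the drug's targets, fell from 10.52, 10.26 and 10.13 to 9.71, 9.76 and 9.91 (1.42-fold lower, adjusted p = 0.000726), and remained above the sham day 28 arrays at 9.25, 9.35 and 9.36. Of the 18 measured genes listed as BET inhibition targets and P-TEFb partners, 2 rose and 2 fell, where 2.16% and 4.23% of all genes did. The tissue label was matched by the cardiomyocyte genes: Myh6, Tnnt2, Tnni3, Actc1, Pln and Myl2 lay between 13.2 and 13.97 on the 6 treated arrays, among the brightest genes measured.

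The results depend on a pair of treated arrays, replicate 1 of day 3 and replicate 1 of day 28. Replicate 1 of day 3 had the widest spread about its group mean (SD 0.193 over genes, against 0.084 to 0.15 on the other 26 arrays) and the lowest array median (7.24, against 7.28 to 7.39). It carried high readings of single genes, such as 11.19 for Prg4 against 9.08 and 9.23 on its companions, and 10.84 for Srxn1 against 8.94 and 8.88. Replicate 1 of day 28 had the high readings of interferon-stimulated genes described below, but the smallest spread of its group (SD 0.122, against 0.147 and 0.15). Replicate 3 of day 28 had the highest mean level of that group for chemokines (7.54, against 7.01 and 6.86). The same held for neutrophil markers (6.84, against 6.03 and 6.04). No scan or extraction batch is named in the labels.

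Under JQ1 1275 genes differed between day 28 and day 3 at a limma adjusted p under 0.05, which is 6.4% of those tested. There were 431 higher at day 28 (2.16%) and 844 lower (4.23%). Counts of called list members below are to be read beside these shares of all genes. Most changes were small: the median called fold was 1.35 among the higher and 1.27 among the lower genes, and 28 and 16 genes changed at least 2-fold. In 3315 genes (16.6%) the 3 and 3 values did not overlap, which held for 1189 of the genes called; in sham the same was true of 3133 genes, nearly as many. Without day 3 replicate 1 there were 778 calls, without day 28 replicate 1 there were 317, and without both there were 183 (36 higher and 147 lower). A fit to the 6 treated arrays alone, which takes the spread from those arrays only, called 13 genes, 3 higher and 10 lower.

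Fewer genes passed the test in sham over the same days. By limma 16 did (0.0803%), 13 higher and 3 lower at day 28, and 1558 genes had an unadjusted p under 0.05 there, against 3606 under JQ1. This order depended on the fit: with array weights 2018 genes passed in sham and 1898 under JQ1. The JQ1 change differed from the sham change in 1376 genes (6.9%), 496 with the more positive change under JQ1 (2.49%) and 880 with the more negative (4.41%). With each array centred on its median this split was 312 and 977. Genes called higher under JQ1 had a median log2 change of 0.44 there and -0.12 in sham, and those called lower had -0.35 and 0.13. The difference from sham was called in 290 of the 431 and 636 of the 844. It holds the JQ1 change by which these genes were chosen, so these counts are not separate support. Over all genes the JQ1 and sham changes, which share no array, had a Pearson correlation of -0.326, given as a description, since genes are not independent replicates. The sham calls fell to 0 without sham day 3 replicate 1 or sham day 28 replicate 2 or 3, and to 8 without sham day 3 replicate 3. The difference from sham gave 686 calls without JQ1 day 28 replicate 1, and 837 or 903 without sham day 28 replicate 2 or 3.

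**Figure D1:**
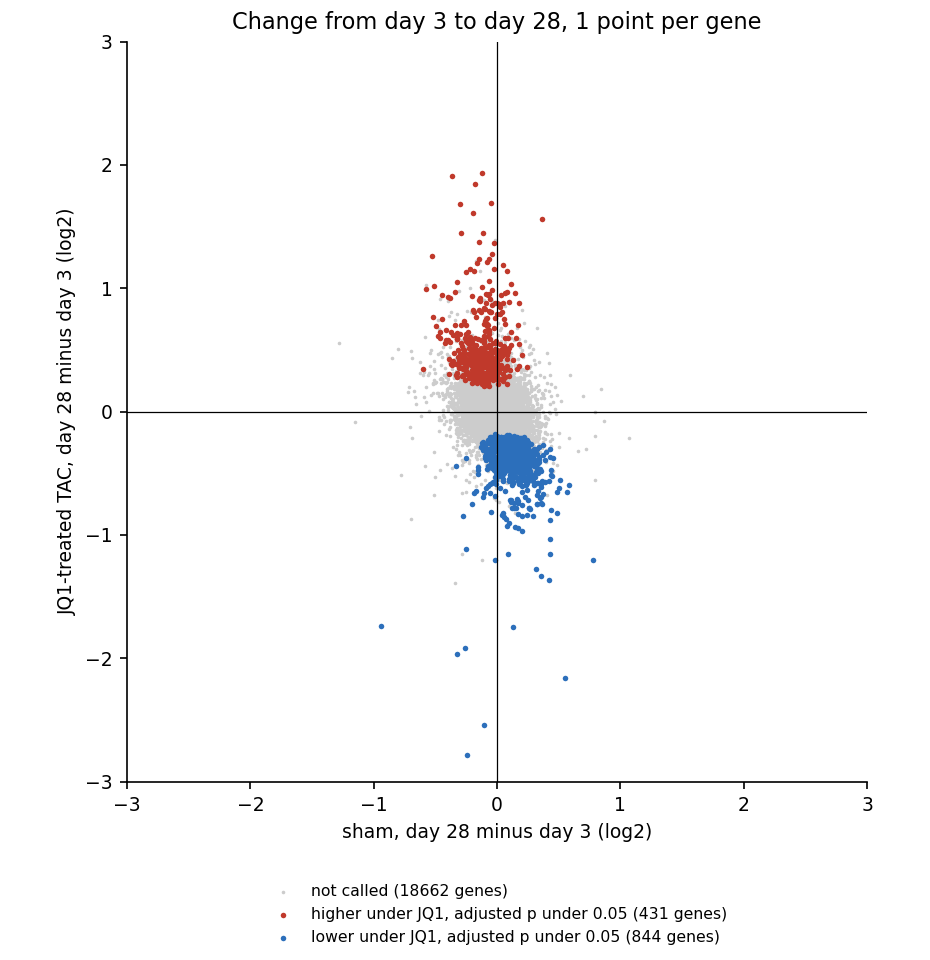
Each point is 1 of 19937 genes, with its log2 change from day 3 to day 28 in sham hearts on the x axis and in JQ1-treated TAC hearts on the y axis. The 431 genes higher under JQ1 (red) and the 844 lower (blue) reach changes of up to 1.93 and -2.78, and the red points lie mostly left of 0 and the blue points right of 0 on the sham axis (medians -0.12 and 0.13).

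Timp1, Tnc, Prg4 and Lox, which encode secreted proteins, had the largest falls. The difference from the vehicle TAC change was called in none of them, nor in Thbs1 described below. Timp1, an inhibitor of the metalloproteinases that degrade matrix (chromosome X, 20870166 to 20874737 on GRCm38.p6), read 11.23, 11.21 and 10.78 at day 3 and 8.13, 8.18 and 8.56 at day 28. This was a 6.89-fold fall (-2.78 ± 0.36, adjusted p = 0.000114), against -0.25 ± 0.36 in sham. Timp1 was still above the sham day 28 arrays, which read 6.47, 7.23 and 7.25. Tnc, the matricellular glycoprotein tenascin C of injured tissue (chromosome 4, 63959785 to 64047015), fell from 8.29, 9.38 and 9.19 to 6.32, 6.6 and 6.31, or 5.83-fold (adjusted p = 0.000305). Its day 28 arrays came close to the sham day 28 arrays, at 5.95, 6.03 and 6.19, without reaching them. Thbs1, or thrombospondin 1, another matricellular protein, fell 3.35-fold, from 10.34, 9.73 and 9.82 to 7.99, 8.19 and 8.48 (adjusted p = 0.000331).

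These 3 genes were already low at day 11, when Timp1 read 8.93, 8.55 and 8.6, Tnc 6.76, 6.5 and 6.79, and Thbs1 8.6, 8.23 and 8.07. Without both replicates 1 their changes were -2.62, -2.83 and -1.44, with adjusted p = 0.00816, 0.00268 and 0.0276. Lox, the lysyl oxidase that cross-links collagen, also fell, from 9.84, 8.52 and 8.52 to 6.84, 6.68 and 7.46 (3.91-fold, adjusted p = 0.00308). Prg4, which encodes the lubricating proteoglycan lubricin, fell 4.47-fold (adjusted p = 0.000828), and -1.41 remained of its -2.16 without both replicates 1 (adjusted p = 0.0153). The next largest fall was that of 2210407C18Rik, a gene known by a clone name only, from 8.79, 8.09 and 8.03 to 6.33, 6.33 and 6.51 (3.77-fold, adjusted p = 0.000814). Serpina3n, an acute phase protease inhibitor, fell from 12.43, 11.32 and 10.95 to 9.86, 9.11 and 10.52, and it read lower in sham too (-0.94 ± 0.35, adjusted p = 0.419). Lox and Serpina3n were no longer called without both replicates 1 (adjusted p = 0.131 and 0.125).

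**Figure D2:**
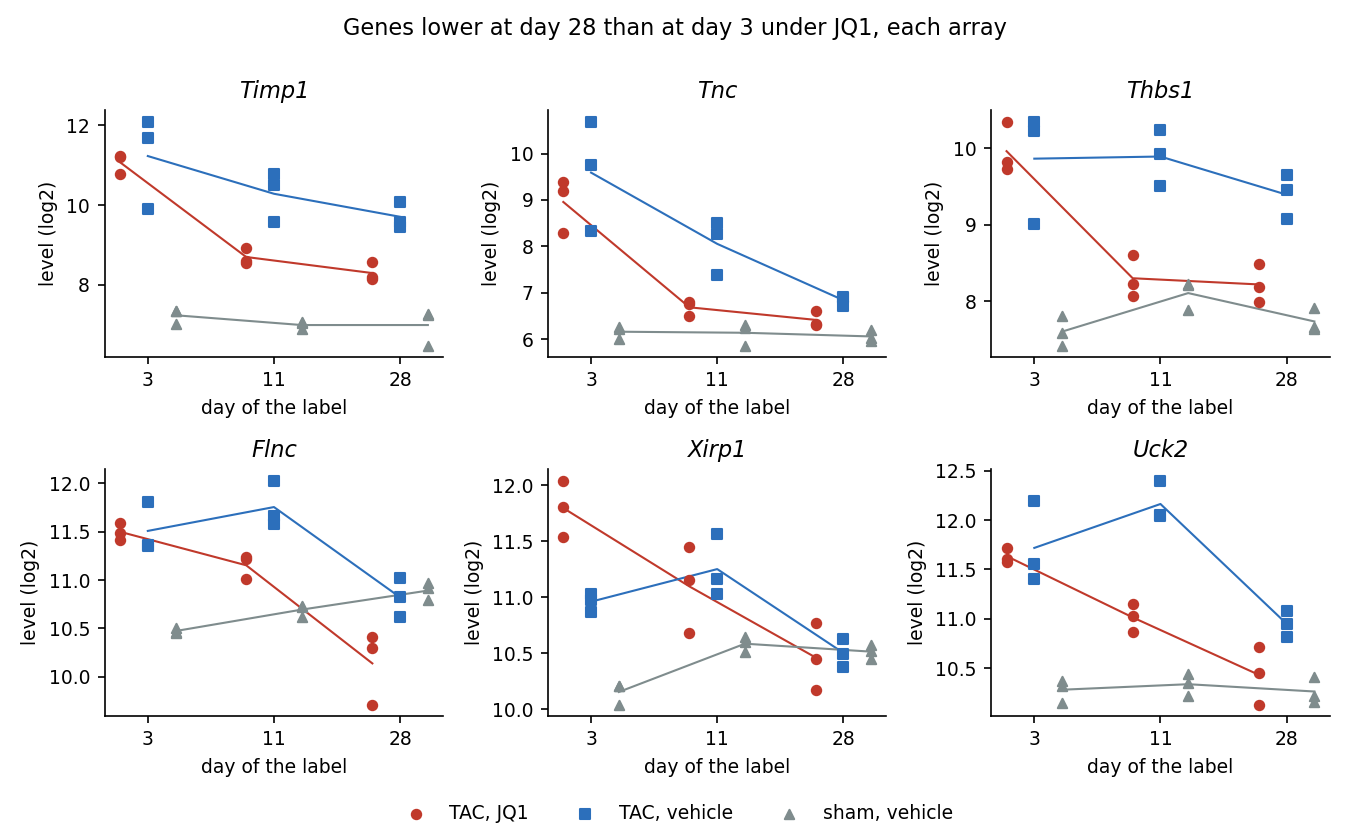
Levels in log2 units of 6 genes on every array at days 3, 11 and 28, with TAC with JQ1 in red, TAC with vehicle in blue and sham in grey; lines join group means of 3 arrays. Timp1 under JQ1 drops from a mean near 11 to 8.13 to 8.56 at day 28, and Flnc falls below the sham arrays of that day.

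Structural matrix moved little beside these. Among 42 measured matricellular and other matrix genes 4 rose and 4 fell, with a median log2 change of 0.03 (0.01 over all genes), and the falls were Tnc, Thbs1, Ccn1 and Vcan. Ogn, which encodes the small proteoglycan osteoglycin, was one of the 4 that rose (1.84-fold, adjusted p = 0.0347), but its call was lost without day 3 replicate 1, day 28 replicate 1 or day 28 replicate 3. Without either replicate 1, or without both, the count was 0 higher and 2 lower. Of 22 collagen genes 2 fell, the basement membrane chains Col4a1 and Col4a2, and without day 3 replicate 1 there were 5 falls. Col4a2 went from 9.35, 9.03 and 9.03 to 8.44, 8.54 and 8.71 (1.49-fold, adjusted p = 0.000726). Col1a1 read 8.85, 9.36 and 9.54 and then 8.71, 8.87 and 8.72 (-0.48 ± 0.15, adjusted p = 0.055). Postn, the fibroblast product periostin, read 11, 11.31 and 11.77 and then 11.02, 10.6 and 11.09, with no call (adjusted p = 0.325), and its treated arrays lay above all sham arrays of both days, which read 9.23 to 9.9.

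All called genes of the myocyte stress list fell. Of the 30 measured cardiomyocyte stress and fetal genes, 0 rose and 12 fell, with a median log2 change of -0.34 against 0.11 in sham. Vehicle TAC had 3 falls and a median of -0.10, and the difference from the vehicle TAC change was called in none. The mean level of the list on each array was 10.38 to 10.54 at day 3 and 9.94 to 10.13 at day 28, against 9.97 to 10.08 in sham and 10.41 to 10.44 in vehicle TAC at day 28. On the treated day 28 arrays the list thus lay in or next to the sham range, and below every vehicle TAC array of that day. Without day 3 replicate 1 there were 10 falls, without day 28 replicate 1 there were 3, without both there were 5, and the median kept its sign under each (-0.39, -0.32 and -0.32). A fit to the 6 arrays alone called 2.

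Xirp1, a Xin actin-binding protein of the intercalated disc, read 11.8, 11.54 and 12.04 at day 3, 11.15, 11.45 and 10.68 at day 11, and 10.17, 10.77 and 10.45 at day 28. It was 2.52-fold lower at day 28 than at day 3 (-1.33 ± 0.16, adjusted p = 5.83e-05), while sham changed by 0.36 ± 0.16. Uck2, a uridine-cytidine kinase, fell from 11.58, 11.72 and 11.61 to 10.13, 10.45 and 10.71 (2.3-fold, adjusted p = 0.000105), and its lowest day 28 array reached the sham day 28 values of 10.16, 10.41 and 10.22. Both kept their calls without both replicates 1 (adjusted p = 0.00405 and 0.00537). Myh7, the beta myosin heavy chain of the fetal mouse ventricle, went from 11.55, 12.09 and 11.54 to 10.47, 10.6 and 11.02, a 2.04-fold fall (adjusted p = 0.0053), and its day 28 arrays were still above the sham range of 9.81 to 10.05. Rcan1, an inhibitor of calcineurin that calcineurin signalling itself induces, fell 1.8-fold, from 9.74, 10.4 and 10.3 to 9.19, 9.26 and 9.44. Ankrd1, a titin-bound stress sensor, fell 1.23-fold, from 13.12, 13.09 and 13.19 to 12.84, 12.78 and 12.89. The calls of Myh7, Rcan1 and Ankrd1 were lost without day 28 replicate 1 (adjusted p = 0.0583, 0.0583 and 0.0679), with changes of -0.92, -0.79 and -0.31.

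The natriuretic peptide genes, the usual readouts of wall stress, did not pass the test. Nppa read 12.31, 12.86 and 12.79 at day 3 and 12.1, 12.7 and 12.85 at day 28 (-0.10 ± 0.18, adjusted p = 0.884), above the sham day 28 arrays at 11.62, 11.95 and 11.79. Nppb read 11.84, 11.96 and 12.62 and then 11.72, 11.88 and 11.58 (-0.41 ± 0.32, adjusted p = 0.587). Acta1, skeletal alpha actin, another gene of the fetal programme, read 12.11, 12.22 and 12.54 and then 11.15, 11.5 and 12.2 (-0.68 ± 0.29, adjusted p = 0.208). In these 3 genes the day 3 and day 28 arrays overlapped.

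Flnc, Plec and Speg, genes of striated muscle structure, fell, and at day 28 they lay below the sham arrays of that day. Flnc, the striated muscle actin cross-linker filamin C (chromosome 6, 29433153 to 29461889), read 11.42, 11.49 and 11.59 at day 3, 11.22, 11.24 and 11.01 at day 11, and 9.71, 10.3 and 10.41 at day 28. The fall was 2.57-fold (-1.36 ± 0.15, adjusted p = 1.93e-05), sham changed by 0.42 ± 0.15 without a call, and all 3 treated day 28 arrays lay below the sham day 28 arrays at 10.79, 10.97 and 10.92. Plec, the cytolinker plectin, fell from 8.76, 8.88 and 8.93 to 7.86, 8.23 and 8.26 (1.67-fold, adjusted p = 5.18e-05), against 9.12, 9.17 and 9.16 in sham at day 28. Speg, a striated muscle kinase, fell from 9.21, 9.29 and 9.34 to 8.41, 8.66 and 8.76 (1.59-fold, adjusted p = 9.14e-05), against 9.84, 10.04 and 9.95 in sham at day 28. All 3 kept their calls without both replicates 1 (adjusted p = 0.000435, 0.000435 and 0.00238). At day 11 Plec and Speg read 8.83 to 8.86 and 9.23 to 9.35, overlapping the day 3 arrays. Their differences from the sham change (-1.10 and -1.04) were larger than their own changes (-0.738 and -0.67). The sham means thus rose, and that rise is part of the gap at day 28. The mean of Speg under JQ1 lay below the sham mean at day 3 already.

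Of 26 integrin and adhesion genes 6 fell and 0 rose. Vehicle TAC had 3 falls and 3 rises in this list. The difference from the vehicle TAC change was called in 1 member, more negative under JQ1. Itga7, the laminin receptor subunit of muscle, fell from 10.51, 10.3 and 10.16 to 9.21, 9.49 and 9.45 (1.92-fold, adjusted p = 9.14e-05). Itga5, the fibronectin receptor subunit, fell from 10.11, 9.63 and 9.58 to 8.85, 8.95 and 9.19 (1.72-fold, adjusted p = 0.00257) and was not called without both replicates 1 (adjusted p = 0.131). Among 19 intercalated disc genes 5 fell (Xirp1, Jup, Des, Cdh2 and Tln1) and 0 rose. Vehicle TAC had 4 falls and 0 rises in the disc list, with a median of -0.18 against -0.13 under JQ1. The difference between these changes was called in none of its members. Jup, which encodes plakoglobin, went from 11.29, 11.09 and 11.12 to 10.57, 10.82 and 10.86 (1.33-fold, adjusted p = 0.0054). Without day 28 replicate 1 the integrin list held 3 falls and the disc list 1, and without both replicates 1 they held 2 and 1.

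Calcium cycling genes also held mostly falls. Of 26 measured calcium cycling genes 6 fell and 1 rose, with a median log2 change of -0.07. Vehicle TAC had 4 falls and 1 rise in this list, with a median of -0.07 too. The difference from the vehicle TAC change was called in 1 member, more negative under JQ1. Jph2, the junctophilin that holds the transverse tubule to the sarcoplasmic reticulum, fell from 10.02, 9.69 and 9.79 to 9, 9.34 and 9.38 (1.51-fold, adjusted p = 0.000752), against a sham change of 0.30 ± 0.10 that was not called. Ryr2, the calcium release channel, fell from 12.66, 12.43 and 12.44 to 12.01, 12.28 and 12.16 (1.28-fold, adjusted p = 0.0044). Slc8a1, the sodium-calcium exchanger, fell from 11.36, 11.31 and 11.4 to 10.67, 11.08 and 11.01 (1.35-fold, adjusted p = 0.00906). Ryr2 and Slc8a1 were not called without day 28 replicate 1 (adjusted p = 0.06 and 0.11), and vehicle TAC had like changes in both (-0.34 and -0.46, adjusted p = 0.0103 and 0.01). Without day 28 replicate 1 the list held 2 falls, and without both replicates 1 again 2. Kcnk3, a potassium leak channel, fell 1.41-fold (adjusted p = 0.00146), and Adra1b, the alpha-1B adrenergic receptor, fell 1.37-fold (adjusted p = 0.00102).

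Genes of fat handling held falls, none of them called different from the sham change. Of 35 genes for fatty acid uptake and oxidation 8 fell and 1 rose, with a median of -0.16 against -0.05 in sham. The difference from the sham change was called in 2, both more positive under JQ1, and in none was it more negative. Ech1, a peroxisomal and mitochondrial enzyme of unsaturated fatty acid oxidation, fell from 12.51, 12.57 and 12.36 to 12.19, 12.25 and 12.13 (1.22-fold, adjusted p = 0.00734). Acadvl, the very long chain acyl-CoA dehydrogenase, fell 1.27-fold (adjusted p = 0.00903), and Lpl, which releases fatty acids from circulating triglyceride, fell 1.2-fold (adjusted p = 0.0229). The list's mean level was 11.11 to 11.53 on the day 3 arrays and 11 to 11.13 at day 28, so the ranges overlapped. Without day 3 replicate 1 the list held 1 fall and a median of -0.06, without day 28 replicate 1 it held 1 fall and 1 rise, and without both no member was called. The nuclear receptors Ppard and Rxra, which drive such genes, fell 1.34-fold and 1.38-fold (adjusted p = 0.000671 and 0.000585) and were called under every one of these omissions. Of 27 genes of the TCA cycle and pyruvate oxidation none was called.

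Signalling and stress-response lists held scattered falls. Of 30 immediate early genes 0 rose and 6 fell, with a median of -0.20 against 0.08 in sham, and Dusp5, a nuclear phosphatase of ERK, had the smallest p among them (1.33-fold, adjusted p = 0.00327). Ccn1, a matricellular immediate early gene, fell more (1.81-fold, adjusted p = 0.00882), a call lost without either replicate 1. Leaving out either replicate 1 left 1 fall in this list, and leaving out both left 0. Of 34 IGF and FGF genes 6 fell, among them Igfbp5, an IGF-binding protein, which read 9.01, 9 and 8.99 and then 8.56, 8.19 and 8.5 (1.5-fold, adjusted p = 0.00515). Igf1r and Igf2, a receptor and a ligand of this pathway, fell 1.32-fold and 1.37-fold, and both calls were lost without day 28 replicate 1 (adjusted p = 0.0746 and 0.0867). Without day 28 replicate 1, or without both replicates 1, the list held 1 fall.

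Of 33 genes of glutathione, NRF2 and metallothionein defence 6 fell and 1 rose. Nqo1, a quinone reductase and a standard NRF2 target, read 10.6, 9.76 and 9.55 and then 9.08, 8.88 and 9.32 (1.83-fold lower, adjusted p = 0.00297). Keap1, the adaptor that sends NRF2 to degradation, fell too (1.3-fold, adjusted p = 0.00323), as did Me1, the malic enzyme (1.36-fold, adjusted p = 0.00327). Cybb, the catalytic subunit of the phagocyte NADPH oxidase, was the member that rose, from 8.08, 8.53 and 8.78 to 9.58, 8.88 and 9.9. The list's mean level spread from 9.79 to 10.27 over the day 3 arrays, without day 28 replicate 1 it held 3 falls, and without both replicates 1 it held 1 fall and a median of -0.02. Stat3, the transcription factor of IL-6-type cytokines, fell from 10.94, 10.78 and 10.71 to 10, 10.28 and 10.54 (1.45-fold, adjusted p = 0.00137), and Gadd45g, a growth arrest gene, fell 1.96-fold (adjusted p = 0.00327). Il6 itself was not called.

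Several nuclear regulators, named for their difference from the sham change or for their change in sham, fell under JQ1. Nfic, a nuclear factor I protein, read 9.48, 9.4 and 9.52 at day 3 and 8.48, 8.73 and 8.79 at day 28 (1.74-fold, adjusted p = 4.46e-06). Sham rose over the same days from 9.42, 9.46 and 9.48 to 9.83, 9.88 and 9.97 (0.44 ± 0.07, adjusted p = 0.0125). Hipk2, a nuclear kinase of stress signalling, fell from 10.96, 10.73 and 10.73 to 9.22, 9.86 and 9.87 (2.23-fold, adjusted p = 1.01e-05). The histone H3 lysine 4 methyltransferases Kmt2d and Setd1b fell 1.47-fold and 1.44-fold (adjusted p = 0.000298 and 0.00059), and rose in sham by 0.51 and 0.45 (adjusted p = 0.00931 and 0.0262). All 4 were called without both replicates 1. Nr1d1, the clock repressor REV-ERB alpha, fell 1.58-fold (adjusted p = 0.00481), as 1 of 2 called among 20 clock genes.

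Nearly all of the sham rises ran the other way under JQ1. Of the 13 genes that rose in sham 11 fell under JQ1, and the difference between the changes was called in all 13. That difference holds the sham change by which the 13 were chosen, so this count is not separate support. Hspg2, the basement membrane proteoglycan perlecan, rose in sham from 10.14, 10.21 and 10.2 to 10.66, 10.8 and 10.84 (adjusted p = 0.00931) and fell under JQ1 from 10.29, 10.51 and 10.62 to 9.68, 9.9 and 10.04 (adjusted p = 0.000413). The exceptions were Nr4a3, an immediate early nuclear receptor, and Per2, a clock gene, which rose in sham by 1.07 ± 0.17 and 0.70 ± 0.12 and under JQ1 had changes of -0.21 and 0.12 that were not called. Genes called lower under JQ1 spanned a median of 29.8 kb of the genome and the 13 sham rises 42.4 kb, against 17.7 kb for all genes, and the genes called lower had a median level of 9.03, against 7.34 for all; the part of gene length or RNA quality in these calls was not tested. Of the 4 measured genes listed for RNA quality and nuclear RNA none was called.

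Rises under JQ1 were led by interferon-stimulated genes. Of 29 measured members 17 rose and 0 fell, with a median log2 change of 0.70 against -0.09 in sham and 0.35 in vehicle TAC, where none was called. The difference from the sham change was called in 12, all more positive under JQ1. From the vehicle TAC change it was called in none. Ifit3 (chromosome 19, 34583119 to 34588982), whose product binds antiviral signalling proteins, read 6.38, 6.76 and 7.27 at day 3, 8.04, 8.66 and 8.08 at day 11, and 10.07, 8.09 and 8.05 at day 28. The rise was 3.82-fold (1.93 ± 0.34, adjusted p = 0.00137), while the sham arrays read 8.64, 8.56 and 8.59 and then 8.5, 8.44 and 8.49. The treated arrays were thus below every sham array at day 3, and at day 28 replicate 1 was above them and the other two still below. Ifit3b, a neighbouring near-identical copy of Ifit3, could share its signal, so the level of either alone is uncertain.

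Rsad2, which encodes the antiviral enzyme viperin (chromosome 12, 26442743 to 26456452), rose from 7.15, 7.56 and 8.03 to 9.87, 8.98 and 8.71 (3.05-fold, adjusted p = 0.000143), with 8.91, 9.14 and 9.6 at day 11. Ifit1, a binder of viral RNA, rose from 6.67, 6.69 and 6.96 to 10, 8.01 and 7.85 (3.6-fold, adjusted p = 0.0021). Irgm1, an interferon-induced GTPase, rose from 6.88, 7.32 and 7.63 to 9.4, 8.08 and 8.18 (2.43-fold, adjusted p = 0.00223). In each of these genes replicate 1 of day 28 was the highest of the treated arrays, and the day 3 and day 28 arrays did not overlap. Without both replicates 1 the changes of Rsad2, Ifit1 and Irgm1 were 1.05, 1.11 and 0.66, with adjusted p = 0.00421, 0.0221 and 0.0709.

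Over the whole list the same 2 features recurred. In 18 of the 29 genes all 3 JQ1 day 3 arrays lay below all 3 sham day 3 arrays, and in 28 of the 29 replicate 1 was the highest of the treated day 28 arrays. Neither count was made over all genes, so neither can be set beside a share of all genes. The list's mean level was 7.15 to 7.51 on the treated day 3 arrays against 7.85 to 7.92 in sham, and 8.63, 7.78 and 7.74 on treated day 28 replicates 1 to 3 against 7.78 to 7.85 in sham. Without day 28 replicate 1 there were 11 rises, without day 3 replicate 1 there were 13, and without both there were 4, with medians of 0.38, 0.48 and 0.33. The fit to the 6 arrays alone called 0. At day 11 the mean levels were already 7.73 to 8.04, as the plot of list levels by array shows.

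Promoters of the 4 interferon genes just described are shown because they carry GAAA, any 2 bases and GAAA again, the core of the interferon-stimulated response element, within the 250 bases before the start. Each run holds the 200 bases upstream of the RefSeq start on GRCm38.p6, written 5′ to 3′ along the gene's own strand, with capitals on matches of this motif or its reverse complement. In Irgm1 a pair of matches overlap. The start used for Ifit3 lies inside the gene span given above, which begins further upstream.
Ifit1 (chr19:34640689-34640888, plus strand): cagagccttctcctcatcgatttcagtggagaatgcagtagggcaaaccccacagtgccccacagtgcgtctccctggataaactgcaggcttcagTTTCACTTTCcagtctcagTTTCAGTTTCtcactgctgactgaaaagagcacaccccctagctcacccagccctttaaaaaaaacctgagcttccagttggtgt
Ifit3 (chr19:34583329-34583528, plus strand): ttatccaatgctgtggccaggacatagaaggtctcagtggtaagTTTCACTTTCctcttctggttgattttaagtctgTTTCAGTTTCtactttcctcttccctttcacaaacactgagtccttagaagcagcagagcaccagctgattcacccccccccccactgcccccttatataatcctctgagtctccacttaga
Rsad2 (chr12:26456453-26456652, minus strand): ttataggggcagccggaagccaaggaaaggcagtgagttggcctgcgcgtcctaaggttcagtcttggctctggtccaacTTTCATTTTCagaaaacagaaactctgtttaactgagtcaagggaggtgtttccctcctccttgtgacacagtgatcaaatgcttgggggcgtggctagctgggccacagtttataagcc
Irgm1 (chr11:48871421-48871620, minus strand): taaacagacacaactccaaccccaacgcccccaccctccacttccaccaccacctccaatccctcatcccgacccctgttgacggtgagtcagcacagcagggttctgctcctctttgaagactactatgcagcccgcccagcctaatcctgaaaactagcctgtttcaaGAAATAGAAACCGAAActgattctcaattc
The motif, searched on both strands, was in 978 of 32851 RefSeq promoters (2.98%), in 531 of the 15613 measured genes with a promoter in that table (3.4%), and in 7 of the 15 members called higher that have one: Bst2, Gbp3, Ifit1, Ifit3, Irgm1, Rsad2 and Stat2. Among all measured members of the list with a promoter it was in 9 of 22, so it was not confined to members called higher. A match is a description of these letters and not of factor binding. A CArG box, the site of serum response factor known for stress and smooth muscle genes, was in 1.45% of measured genes with a promoter and in 2 of the 10 called stress genes that have one, Fhl1 and Srf. Among all measured stress genes with a promoter it was in 4 of 26. It was in 0 of the 14 smooth muscle and pericyte genes that have one.

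**Figure D3:**
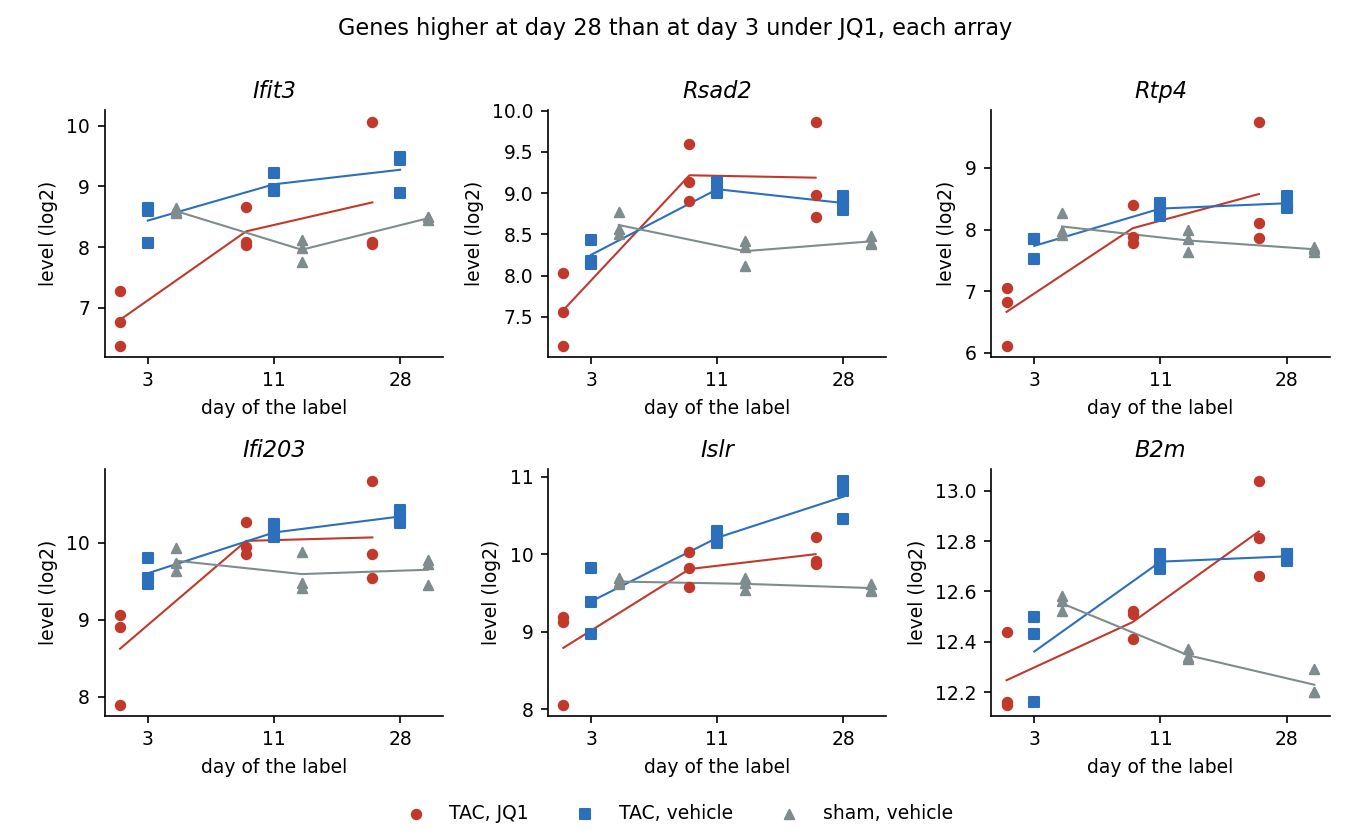
Levels in log2 units of 6 genes on every array at days 3, 11 and 28, with TAC with JQ1 in red, TAC with vehicle in blue and sham in grey; lines join group means of 3 arrays. Ifit3, Rsad2 and Rtp4 start below the sham arrays at day 3, and in each of them the highest JQ1 reading at day 28 is that of replicate 1.

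Other genes known to respond to interferon or to present antigen rose beside the list. Rtp4, a transporter protein induced by interferon, rose from 6.12, 6.83 and 7.05 to 9.75, 8.11 and 7.87 (3.76-fold, adjusted p = 0.000585). Ube2l6, which conjugates the ubiquitin-like ISG15, rose from 8.48, 8.28 and 8.75 to 10.43, 9.8 and 9.62 (2.72-fold, adjusted p = 0.000331), and both were called without both replicates 1. B2m, the light chain of MHC class I, rose from 12.15, 12.16 and 12.44 to 13.04, 12.66 and 12.81 (1.51-fold, adjusted p = 0.000403), while the sham arrays went from 12.56, 12.58 and 12.52 to 12.2, 12.2 and 12.29. It was 1 of 3 of 18 antigen presentation genes that rose. Il15, a cytokine that sustains NK and memory T cells, rose 1.51-fold (adjusted p = 0.00157). Of the T and NK cell, B cell and neutrophil markers none was called, and T cell defining markers Cd3e and Cd3g lay between 4.87 and 7.36 on the treated arrays.

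Of 30 macrophage markers 2 rose and 0 fell, Adgre1 and Fcer1g (2.16% of all genes rose), with a median of 0.22, against -0.33 in sham, and the difference from sham was called in 9. Adgre1, the F4/80 surface receptor, read 7.64, 8.26 and 8.42 at day 3 and 9, 8.43 and 9.95 at day 28 (2.02-fold, adjusted p = 0.0133). Its call was lost without day 3 replicate 1, day 28 replicate 1 or day 28 replicate 3. The list's mean level was 8.1 to 8.27 at day 3 and 8.25 to 8.58 at day 28 under JQ1, 7.98 to 8.04 in sham at day 28, and 8.76 to 9.05 in vehicle TAC at day 28. Without either replicate 1 no member was called. The part of macrophage number in the rise of the interferon genes was not tested.

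**Figure D4:**
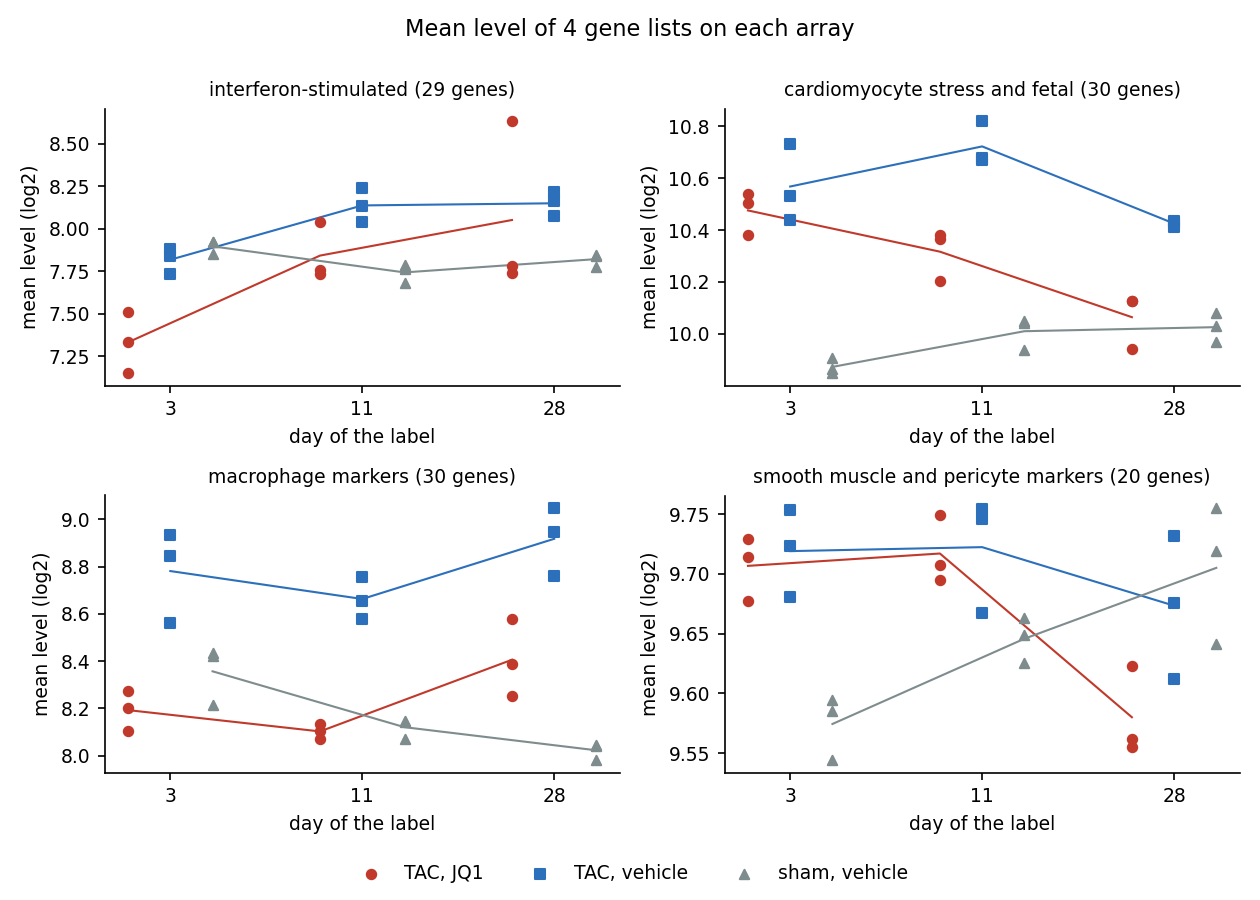
Mean level in log2 units of the measured members of 4 gene lists on each array, by day, for TAC with JQ1 (red), TAC with vehicle (blue) and sham (grey); lines join group means of 3 arrays. The interferon-stimulated list under JQ1 rises from 7.15 to 7.51 at day 3 to 7.74 to 8.63 at day 28, and the stress and fetal list falls into or next to the sham range.

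Stromal cell markers held calls in both directions. Among 24 fibroblast markers 4 rose and 1 fell, with a median of 0.20 against -0.18 in sham. Islr, a surface protein of cardiac fibroblasts, rose from 8.06, 9.13 and 9.19 to 10.22, 9.91 and 9.87 (2.31-fold, adjusted p = 0.0014), and vehicle TAC rose alike (1.35 ± 0.21, adjusted p = 0.000852). Pcolce2, an enhancer of procollagen processing, rose from 9, 8.92 and 9.12 to 9.76, 9.47 and 9.48 (1.47-fold, adjusted p = 0.00132). Neither passed without both replicates 1 (adjusted p = 0.0571 and 0.0559), and the fibroblast list then held 1 rise, as it did without day 28 replicate 1, while without day 3 replicate 1 it held 2 rises and 2 falls. Among 25 endothelial markers 3 rose and 1 fell (2.16% and 4.23% of all genes did), with a median of -0.02. Cav1, the coat protein of caveolae, rose 1.33-fold (adjusted p = 0.00403), and was not called without both replicates 1 (adjusted p = 0.135). Eng, the TGF-beta co-receptor endoglin, was the one that fell (1.28-fold, adjusted p = 0.0476), a call lost without 5 of the 6 treated arrays in turn.

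Of 20 smooth muscle and pericyte markers 6 fell and 2 rose, and the change was more negative than in sham in 9. Tagln, a smooth muscle actin-binding protein also made by stressed myocytes and myofibroblasts, fell from 8.52, 8.44 and 8.07 to 7.39, 7.41 and 7.41 (1.92-fold, adjusted p = 0.000296), below the sham day 28 arrays at 7.75, 7.63 and 7.73. Myh11, smooth muscle myosin, fell from 8.16, 8.17 and 8.02 to 7.7, 7.72 and 7.69 (1.33-fold, adjusted p = 0.00228), while sham read 7.96, 7.88 and 7.88 and then 8.18, 8.16 and 8.26. Without day 28 replicate 1 the list held 3 falls and 0 rises, without both replicates 1 it held 2 falls and 0 rises, and Myh11 was then at adjusted p = 0.0523. Cardiomyocyte markers had 4 falls in 18, at most 1.36-fold in size, and a median of -0.01.

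A red cell gene and a platelet gene rose. Alas2, the erythroid enzyme that starts haem synthesis, rose from 8.42, 8.05 and 8.85 to 10.44, 9.93 and 9.98 (3.2-fold, adjusted p = 0.00041), with 9.52, 9.38 and 10.87 at day 11, while sham arrays of both days lay between 8.27 and 8.91. Ppbp, a platelet chemokine, rose 2.31-fold (adjusted p = 0.00645) and lost its call without day 28 replicate 1. Its treated arrays read 8.01 to 8.44 at day 3 and 9.25 to 9.73 at day 28, against 9.27 to 9.5 and 8.92 to 9.38 in sham. Pf4, another platelet marker, was not called (0.402, limma adjusted p = 0.222). Alas2 and Ppbp were 2 of 8 measured members. The list's mean level was 7.3 to 7.53 at day 3 and 7.81 to 8.09 at day 28, so the groups did not overlap. The part of blood left in the tissue was not tested.

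Small RNA genes differed by class. Of 297 microRNA genes 4 rose and 2 fell, with a median of 0.02. These shares, 1.35% and 0.673%, were below the 2.16% and 4.23% of all genes. Mir1a-1, a muscle microRNA gene, fell from 7.9, 6.44 and 6.56 to 5.43, 5.87 and 5.98 (2.31-fold, adjusted p = 0.0236), a call lost without either replicate 1. Of 53 small nucleolar RNA genes, guides of ribosomal RNA modification, 9 rose and 0 fell, with a median of 0.23, against 0 higher, 2 lower and -0.17 in sham. Vehicle TAC had 3 higher, 0 lower and a median of 0.16. The difference from the vehicle TAC change was called in none and had a median of 0.01. Snora52 read 11.23, 11.5 and 11.53 and then 11.6, 11.96 and 11.74 under JQ1 (1.27-fold, adjusted p = 0.0398), and fell in sham from 11.68, 11.85 and 11.65 to 11.22, 11.11 and 11.06. Its rise was lost without day 3 replicate 1, day 28 replicate 2 or day 28 replicate 3. Rny1, a Y RNA, rose from 8.46, 8 and 7.57 to 9.78, 9.07 and 9.87 (2.95-fold, adjusted p = 0.00376). Mir15a, whose probe set reads the precursor's locus, rose 1.56-fold (adjusted p = 0.00139), while sham had a change of -0.46 ± 0.11 (adjusted p = 0.134).

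**Figure D5:**
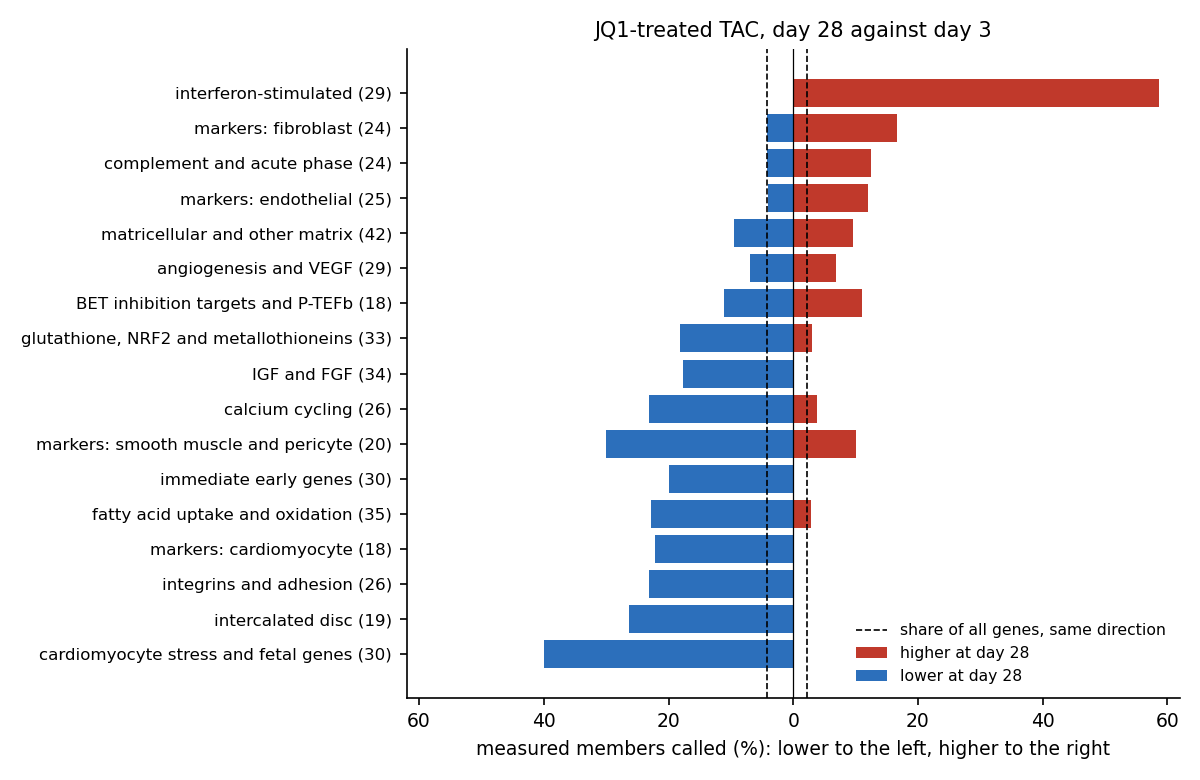
Share in percent of measured members called higher (red, to the right) or lower (blue, to the left) at day 28 than at day 3 under JQ1, for lists with at least 4 called members; the number measured is in brackets, and dashed lines mark the 2.16% and 4.23% of all genes called in the same direction. Interferon-stimulated genes reach 17 of 29 to the right, and cardiomyocyte stress and fetal genes 12 of 30 to the left.

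The day 11 arrays split the course. From day 3 to day 11 363 genes were called (1.82%), 269 higher and 94 lower, and from day 11 to day 28 1048 (5.26%), 205 higher and 843 lower. Both comparisons share arrays with the day 28 to day 3 comparison, so their overlap is not given. After repeated quantile normalization the second interval held 281 higher and 558 lower. Without day 3 replicate 1 or day 11 replicate 1, 2 or 3 the first interval held 82, 81, 87 and 162 calls, and without day 3 replicate 3 it held 607. The second held 460 and 348 without day 11 replicate 1 or 2, 282 without day 28 replicate 1, and 1643 without day 28 replicate 3. The proliferation list, with Mki67 at 6.47, 6.96 and 7.15 at day 3, 8.44, 8.05 and 8.23 at day 11 and 7.71, 6.98 and 7.15 at day 28, had 16 of 53 genes called higher from day 3 to day 11, 5 called lower from day 11 to day 28, and 0 called between days 3 and 28.

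Vehicle-treated TAC hearts changed in 727 genes (3.65%) over the same days, 508 higher and 219 lower. After repeated quantile normalization these were 509 and 357. Of the 508, 92 also rose under JQ1 (18.1% of them, and 21.3% of the JQ1 rises), and of the 219, 67 also fell (30.6%, and 7.94% of the JQ1 falls); the 2 comparisons share no array. The difference between the changes was called in 54 genes (0.271%), 4 more positive and 50 more negative under JQ1. After repeated quantile normalization that split was 19 and 46, and a fit to the arrays of these groups alone called 0. The 54 became 10, 30 or 122 without JQ1 day 28 replicate 1, 2 or 3, and 164 without JQ1 day 3 replicate 3. They became 95 or 25 without vehicle day 3 replicate 1 or 3, and 11, 151 or 112 without vehicle day 28 replicate 1, 2 or 3. Without vehicle day 3 replicate 2 or 3, or vehicle day 28 replicate 1 or 3, the vehicle calls were 373, 312, 321 and 299.

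Cilp, a matrix protein of activated fibroblasts, had the widest called gap between the arms among the named genes. It rose under vehicle from 8.53, 8.46 and 8.13 to 10.49, 8.9 and 10.59, and under JQ1 read 7.81, 8.08 and 8.6 and then 7.54, 7.53 and 7.69 (difference of the changes -2.20, adjusted p = 0.0209). Thbs4, thrombospondin 4, had a like difference that was not called (-2.11, adjusted p = 0.0571). Of the 42 matrix genes 18 rose and 1 fell under vehicle, where 4 rose and 4 fell under JQ1; the difference of the changes was called in 2 of the 42, Cilp and Ccn5. Lrp1, an endocytic receptor, and Nr1d1 fell under JQ1 and rose under vehicle, with differences of -0.78 and -1.15 (adjusted p = 0.00142 and 0.0129). The fall of Lrp1 under JQ1 was small (1.22-fold) and was lost without any of 4 of the 6 treated arrays. Mme, the peptidase neprilysin, had the widest called difference in the other direction among the named genes: it rose under JQ1 from 6.79, 7.16 and 7.06 to 7.77, 7.56 and 7.44, and read 7.62, 7.16 and 7.39 and then 7.01, 7.15 and 6.76 under vehicle (1.003, adjusted p = 0.0193). Its rise was lost without day 28 replicate 1.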

How the data were processed

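Each array's log2 signal per probe set was used as deposited by the authors in the series' value table; how they were normalized is not given in these sources, and the submitters' processing notes name limma without a version. Of 34760 probe sets, 21640 name 1 gene, 1321 several and 11799 none on the platform annotation; each of 19937 genes was read through its brightest probe set. Array number limits the precision. R 4.3.3 with limma 3.58.1 fitted 9 group means to 27 arrays, with 18 residual degrees of freedom, tested on simulated data. A gene was called at a Benjamini-Hochberg adjusted p under 0.05 over all genes. Folds are 2 to the power of the log2 change.

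The members, gene lists and rules were chosen with earlier results of these data known. Named genes were a fixed set, the 15 largest rises and falls without overlap, up to 4 called genes per list, and the leading differences from sham, from vehicle and within sham. Other names complete short counts or motif matches and were chosen after their values were seen. Same-numbered JQ1 arrays did not deviate together (correlations -0.03, 0.04 and -0.37), so numbers were not used as pairs. Alternatives were another normalization, centring, a filter on dim genes, probe set means, eBayes options, array weights, fewer groups, a replicate block and left-out arrays.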

Additional observations from a re-analysis of the deposited data

Results flagged for a closer look

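The change from day 3 to day 28 under JQ1 differed from the sham change in several genes by limma's test of the difference, adjusted over all genes. More negative under JQ1 were Flnc (-1.78), Hipk2 (-1.58), Nfic (-1.24), Hspg2 (-1.18), Plec (-1.10), Kmt2d (-1.06), Speg (-1.04) and Ttc28 (-0.96), on the log2 scale, with adjusted p from 7.56e-07 (Nfic) to 3.95e-05 (Flnc). More positive under JQ1 were Mir15a (1.10), S100a10 (1.09), Fbxl7 (0.98), Snora52 (0.95), Snora44 (0.94), B2m (0.91), Mrps33 (0.76) and Tmbim4 (0.72), with adjusted p from 0.00011 (Fbxl7) to 0.00035 (S100a10).

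The JQ1 change also differed from the vehicle TAC change in a smaller set. More negative under JQ1 were Nr1d1 (-1.15), Nav1 (-0.815), Lrp1 (-0.78), Vwf (-0.76), Ttc28 (-0.76), Tspan17 (-0.71), Farp1 (-0.69) and Atp9a (-0.59), with adjusted p from 0.000596 (Nav1) to 0.0141 (Farp1). More positive were Mme (1.003), Tmeff2 (0.70), Kcna1 (0.54) and Gabrr2 (0.44), with adjusted p from 0.0193 (Mme) to 0.0341 (Tmeff2). Ttc28, which encodes a tetratricopeptide repeat protein, differed from both arms.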

How the results depend on the processing

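Counts of called genes changed size in several settings, and the majority direction turned for day 11 minus day 3. There 269 higher and 94 lower became 1710 and 2233 with array weights, and 2 and 7 with only the groups compared. The cause was not tested in any setting. With a single array left out, the JQ1 count ran from 317 to 1411, sham from 0 to 18, the difference from sham from 686 to 1533, vehicle from 299 to 788, the difference from vehicle from 10 to 164, day 11 minus day 3 from 81 to 607 and day 28 minus day 11 from 282 to 1643. Without both JQ1 replicates 1, chosen after seeing the data, the JQ1 count, the difference from sham and the difference from vehicle were 183, 654 and 12. Fitting only the groups compared gave 13 for JQ1, 0 for sham, 402 and 0 for the differences from sham and vehicle, 118 for vehicle, and 9 and 0 for the intervals before and after day 11. Array weights gave 2018 in sham, 3291 and 230 for the differences from sham and vehicle, and 3943 and 2225 for the intervals. Without the dimmest genes (1 in 3 left out) sham had 45 and the difference from vehicle 244; eBayes with trend and robust gave 43 and 178; repeated quantile normalization gave 26 in sham. The same numbers do not pair the arrays; with a replicate block the counts were 1161 (JQ1), 13 (sham), 1243 and 54 (differences from sham and vehicle), 668 (vehicle), 266 and 909 (intervals), and 152 of 159 called named genes kept their call. No called named gene changed sign in any setting, and no uncalled one became called in the opposite direction. Signs of uncalled genes did change with a single array left out, as for Nppa (-0.274 to 0.124) and Peg3 (-1.057 to 0.112). Of the 159, 71 kept their call without JQ1 day 28 replicate 1, 107 without JQ1 day 3 replicate 1 and 45 without both.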
